A study of Homo sapiens with 9 samples.

Results

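The 7 genes examined here are named as typical of RUNX1-RUNX1T1 leukaemia and were followed through every sample of an ASXL2 knockdown series in SKNO-1, a line derived from human acute myeloid leukaemia. They were TRH, JUP, CAV1, PRAME, ROBO1, POU4F1 and UBASH3B. Each was found by its exact symbol among the 25680 gene symbols of the count files, and a symbol with several RefSeq transcripts was represented by the transcript with the highest total. All 7 passed the filter on low counts that left 14199 genes for testing. All 9 samples came from this line, which the labels give with the AML-ETO fusion protein, and the study grew it in medium with GM-CSF. The 3 EV samples were the controls. The 3 SH2 and the 3 SH3 samples came from cells with either of 2 shRNAs against ASXL2, a chromatin regulator. The labels do not explain EV, and the study describes a control shRNA. Each group holds a sample numbered 1, 13 and 25, and the labels do not say what these numbers stand for. The extraction text in the labels describes sorted bone marrow cells, although the samples are named for the cell line.

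RUNX1-RUNX1T1, also called AML1-ETO, joins the DNA-binding part of the blood transcription factor RUNX1 to the corepressor RUNX1T1. The fusion protein sits at RUNX sites beside other blood factors, represses many of its targets and accompanies high expression of a recurrent set of genes. Several genes of that set belong to tissues outside the blood, such as the hormone precursor TRH and the neuronal transcription factor POU4F1, and they serve as markers of this leukaemia.

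Sequence is shown for the 2 members whose levels moved most alike over the 9 samples, TRH and JUP, as the 250 bases before a RefSeq transcription start (GRCh38.p14, 5′ to 3′ on the gene's strand). The TRH window is chr3:129974470-129974719 on the plus strand and the JUP window is chr17:41786712-41786961 on the minus strand, at the first of 2 listed JUP starts. Capitals mark TGACCTCA, known in the TRH promoter as a site of CREB and thyroid hormone receptors, and TATAAG, a form of the element that places many transcription starts.
TRH: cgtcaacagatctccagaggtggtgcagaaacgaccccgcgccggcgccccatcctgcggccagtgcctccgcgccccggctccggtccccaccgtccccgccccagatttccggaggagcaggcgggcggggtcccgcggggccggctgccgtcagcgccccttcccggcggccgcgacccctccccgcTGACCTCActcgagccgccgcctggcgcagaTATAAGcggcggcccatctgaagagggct
JUP: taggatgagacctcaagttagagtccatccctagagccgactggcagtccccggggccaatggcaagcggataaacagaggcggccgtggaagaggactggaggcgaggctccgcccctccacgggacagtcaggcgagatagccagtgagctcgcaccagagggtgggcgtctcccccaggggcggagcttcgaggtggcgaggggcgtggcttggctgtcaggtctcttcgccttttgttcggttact
In TRH, TGACCTCA began 60 bases and TATAAG 29 bases before the start, and neither was in the JUP window. The letters TGACCTCA, TATAAG and TGTGGT, the core of the RUNX site, were searched on both strands. They overlapped in no printed window. Of 35116 human RefSeq windows of this length, 1.81% held TGACCTCA, 5.03% held TATAAG and 11.0% held TGTGGT. Among the 13 windows listed for the 7 members, TGTGGT was in 1, at the third of the listed CAV1 starts, and TATAAG was also in 1 window each of POU4F1 and PRAME. These are matches of letters only.

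Totals per sample ran from 27714431 to 35406063 counts with 1 transcript per symbol, so that 3 counts stood for 0.0847 to 0.108 CPM (counts scaled to the library total). ASXL2, the target of the shRNAs, was at 67.9, 67.9 and 74.7 CPM in the EV samples numbered 1, 13 and 25. It was at 30.4, 36.2 and 36.2 CPM in SH2 and at 26.9, 29.1 and 41.1 CPM in SH3, below every EV sample. Of the 8 myeloid blast markers examined, 7 passed the filter, and their sum was 7370 to 11468 CPM, most of it MPO at 8438 CPM on average. CD34, the stem cell antigen, was the exception, with 2 to 10 counts per sample. No epithelial or T cell marker of the 6 and 5 examined passed, and CD3E and CD3G had no count. RUNX1T1 stood at 121 CPM on average, and these counts do not separate the fusion transcript from the unfused genes.

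The 7 genes covered a wide range of levels. Per transcript length, PRAME was highest at 88.7 ± 16.4 RPKM (SD, n = 9), followed by JUP at 44.5 ± 13.0, TRH at 22.6 ± 15.8, ROBO1 at 13.7 ± 1.45 and UBASH3B at 11.6 ± 0.598. POU4F1 at 0.851 ± 0.0692 and CAV1 at 0.282 ± 0.138 RPKM were far lower. The median over the 12338 tested genes with a length was 8.68 RPKM, and 93.3% of them lay below PRAME while 7.08% lay below CAV1. The lowest PRAME sample, 75.0 RPKM, was above the highest JUP sample, 62.8 RPKM, and the lowest POU4F1 sample, 0.727 RPKM, was above the highest CAV1 sample, 0.464 RPKM. The lowest UBASH3B sample, 10.4 RPKM, was likewise above the highest POU4F1 sample, 0.937 RPKM. The other neighbours overlapped: TRH ran from 6.70 to 49.8 RPKM and crossed the ranges of JUP, ROBO1 and UBASH3B, and the last 2 overlapped each other.

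**Figure D1:**
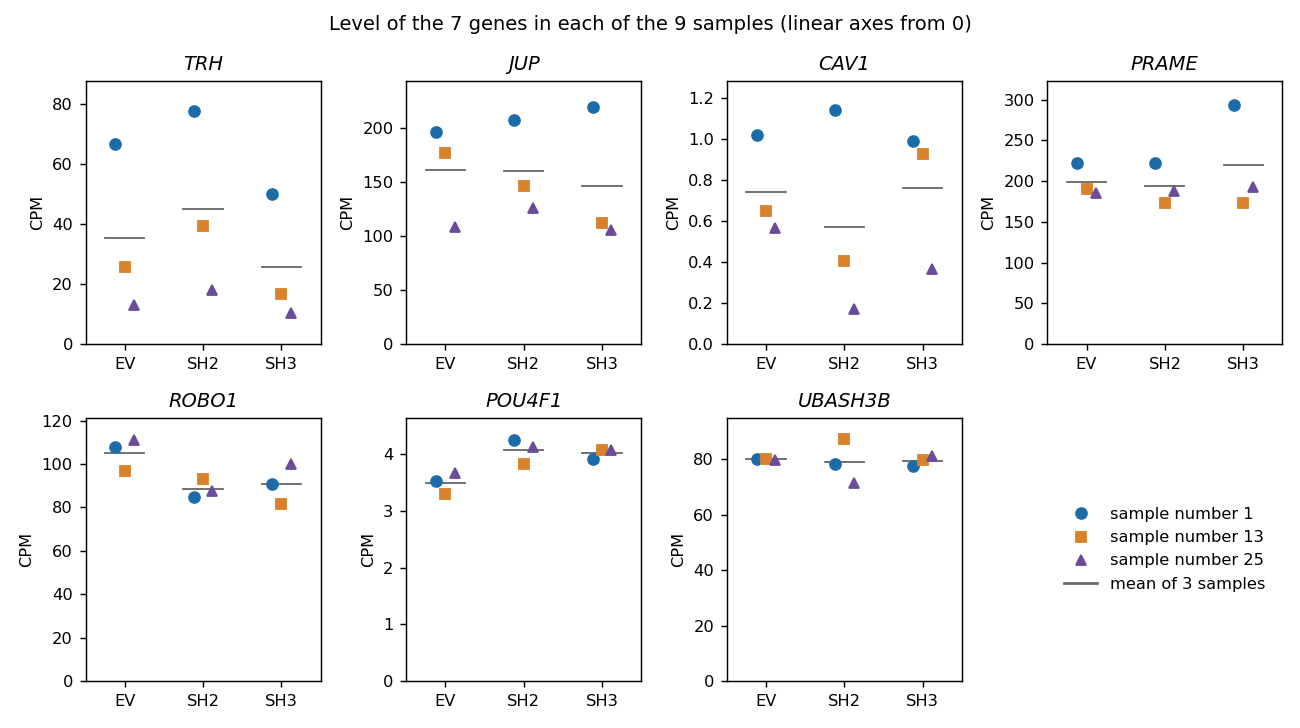
Level in CPM (vertical axes, linear and starting at 0) of each gene in the EV, SH2 and SH3 samples, with a marker shape and colour for each sample number and a grey line at the mean of 3 samples. TRH, JUP, CAV1 and PRAME are highest in the sample numbered 1 of every group, whereas all 6 POU4F1 knockdown samples lie above the 3 EV samples.

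TRH encodes the precursor of thyrotropin-releasing hormone, the hypothalamic peptide that drives release of thyroid-stimulating hormone. It varied most of the 7 genes. In EV it was at 66.7 CPM in the sample numbered 1, 25.8 CPM in number 13 and 13.2 CPM in number 25. The same order held at 77.7, 39.2 and 17.9 CPM in SH2. It also held at 49.9, 16.7 and 10.4 CPM in SH3. The 3 samples numbered 1 thus lay above the other 6, by 2.72-fold to 3.68-fold over the mean of numbers 13 and 25 in their own group. These levels rest on 287 to 2426 counts per sample. The gene (NM_007117) lies at chr3:129693531-129696778 on the plus strand of hg19 (GRCh37).

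Whether a gene differed between the sample numbers was tested in an edgeR quasi-likelihood fit with group and number as terms. Number 1 was set against the mean of 13 and 25. Of 14199 genes, 46.3% were called at a Benjamini-Hochberg adjusted p under 0.05, 24.1% higher and 22.2% lower, so a difference by number is common in these samples. Of the 7 genes, 4 were called, and all 4 were higher in number 1. Counted in either direction, that share is near the 46.3% of all genes, while 24.1% of all genes were called higher. The 7 genes are few and were chosen with earlier results of these data known, so these shares are not a test. The median log2 difference was 0.41 over the 7 genes and 0.01 over all genes tested. TRH was higher by 1.77 on the log2 scale (SE 0.09, edgeR adjusted p = 1.02e-05) and had the smallest p of all 14199 genes. Between numbers 25 and 13, where 5.87% of genes were called, TRH was the member that passed. It was lower in number 25, at -0.94 on the log2 scale (SE 0.11, edgeR adjusted p = 0.00283). Without the group as a term, that adjusted p was 0.112 in edgeR.

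**Figure D2:**
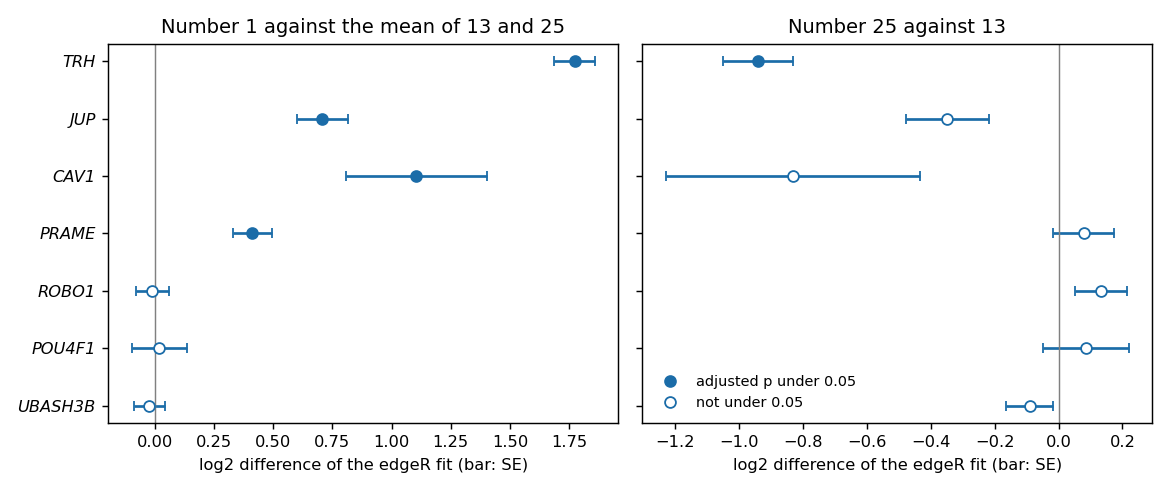
Log2 difference between sample numbers for each gene (horizontal axes) from the edgeR fit with group and number, with bars of 1 SE and filled points where the adjusted p was under 0.05. Number 1 exceeds the mean of 13 and 25 for TRH (1.77), CAV1 (1.10), JUP (0.71) and PRAME (0.41), and TRH alone passes between 25 and 13 (-0.94).

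JUP, also called plakoglobin or gamma-catenin, links cadherins to the cytoskeleton at desmosomes and adherens junctions and can enter WNT signalling. It was at 197, 178 and 109 CPM in the EV samples numbered 1, 13 and 25. It was at 208, 147 and 126 CPM in SH2 and at 220, 112 and 106 CPM in SH3. The order of the numbers was the same in every group, as for TRH, and number 1 did not overlap the other 6 samples. The log2 difference of number 1 was 0.71 (SE 0.11, edgeR adjusted p = 0.00098). Between 25 and 13 it was -0.35 (SE 0.13, edgeR adjusted p = 0.136). That difference was called without the SH3 sample numbered 1 (-0.34, adjusted p = 0.0204) or without SH3 number 13 (-0.51, adjusted p = 0.0316). The counted transcript (NM_002230) belongs to the gene at chr17:39910856-39943183, minus strand, and the other JUP row held 98.4% as many counts.

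CAV1 encodes caveolin-1, the main coat protein of caveolae, the small pits of the plasma membrane. It was at the edge of detection, with 5 to 37 counts per sample. The EV samples were at 1.02, 0.646 and 0.567 CPM in the order 1, 13 and 25. SH2 was at 1.14, 0.407 and 0.173 CPM and SH3 at 0.987, 0.926 and 0.364 CPM. Number 1 was again highest in each group and number 25 lowest, although SH3 number 1 exceeded SH3 number 13 by only 1.07-fold. The log2 difference of number 1 was 1.10 (SE 0.30, edgeR adjusted p = 0.0122), and without the SH2 sample numbered 1 it was 0.73 (adjusted p = 0.0716). Between 25 and 13 it was -0.83 (SE 0.40, edgeR adjusted p = 0.237). CAV1 lies at chr7:116165048-116201233 on the plus strand, and its 4 rows, NM_001172895 among them, held identical counts.

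PRAME is a cancer-testis antigen that serves as the substrate receptor of a CUL2 ubiquitin ligase and can repress retinoic acid receptor signalling. It was at 222, 190 and 186 CPM in the EV samples numbered 1, 13 and 25. SH2 stood at 222, 173 and 188 CPM and SH3 at 293, 173 and 193 CPM. Number 1 was highest in every group, but numbers 13 and 25 had no common order. The log2 difference was 0.41 for number 1 (SE 0.08, edgeR adjusted p = 0.00298) and 0.08 for 25 against 13 (SE 0.10, adjusted p = 0.659). The SH3 sample numbered 1 stood furthest out, 1.60-fold over the mean of SH3 13 and 25, against 1.18-fold in EV and 1.23-fold in SH2. PRAME (NM_206953, chr22:22890123-22901768, minus strand) had 9 rows, which held at least 94.0% of the counts of the row used.

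TRH, CAV1, PRAME and JUP were the members with number 1 above all 6 other samples, a pattern met by 14.4% of all genes tested. TRH, CAV1 and JUP met the stricter order 1 above 13 above 25 in every group, as did 7.8% of genes. Markers of endothelial cells, which express CAV1 and JUP, were examined beside these values. The sum of 5 such markers, of which 3 passed the filter, was 7.07 to 9.70 CPM in number 1, 5.99 to 7.35 CPM in number 13 and 4.37 to 5.75 CPM in number 25. In SH2 the sum was 7.07 CPM in number 1 and 7.08 CPM in number 13. PECAM1 (0.88, SE 0.13, edgeR adjusted p = 0.000976) and VWF (1.92, SE 0.43, adjusted p = 0.00499) were higher in number 1, although VWF was at 3.64 CPM in SH3 number 1 and at most 0.963 CPM in the other 8 samples. Without that sample VWF was still called, with a difference of 0.90 (SE 0.29). KDR, the third marker that passed, was not called (-0.35, SE 0.21, edgeR adjusted p = 0.198) and was lower in number 1 than in 13 in every group. CDH5, which defines that lineage, had no count. The part of these markers in the CAV1 and JUP differences was not tested. Of the 6 fibroblast markers 1 passed, PDGFRB, and the sum was at most 2.13 CPM, and the epithelial sum was at most 0.136 CPM. Of the 7 myeloid blast markers that passed, 2 were called higher and 1 lower in number 1, beside 24.1% and 22.2% of all genes. Library totals were 30385271 to 35406063 counts in number 1, 29197656 to 32648040 in number 13 and 27714431 to 29705803 in number 25, and their part was not tested either.

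The remaining 3 members did not pass the test by number. ROBO1 differed by -0.01 (SE 0.07) between number 1 and the others, POU4F1 by 0.02 (SE 0.12) and UBASH3B by -0.02 (SE 0.06), with edgeR adjusted p of 0.921, 0.904 and 0.798. Between 25 and 13 the values were 0.13 (SE 0.08) for ROBO1, 0.09 (SE 0.14) for POU4F1 and -0.09 (SE 0.07) for UBASH3B, with edgeR adjusted p of 0.357, 0.744 and 0.492.

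The comparisons of the groups ask what differed in these leukaemic cells when ASXL2 was lowered. The study reported differentially expressed genes in SKNO-1 for each shRNA, among them lower TET2 and NOTCH2. Its methods name Cuffdiff and a P under 0.05, unlike the test used here. Without the number as a block, 0 of the 7 genes and 0 of all 14199 genes (0%) passed in SH2 against EV, SH3 against EV, both shRNAs against EV, or SH3 against SH2, by edgeR. At an unadjusted p under 0.05, ROBO1 was the member that passed, in SH2 and in both shRNAs against EV, while 762, 723, 942 and 293 of all genes did so in the order given. DESeq2 without a block called 25, 26, 56 and 11 genes and no member. The same-numbered samples deviated together, and with the number as a block edgeR called 0.282%, 0.416%, 1.1% and 0.106% of genes. The member called was TRH, between the shRNAs. For ASXL2, the shRNA target, edgeR adjusted p in SH2, SH3 and both shRNAs against EV were 0.808, 0.612 and 0.177 without the block. With it they were 0.00469, 0.00407 and 0.00098. The 0 calls without the block therefore do not show that nothing changed. Both comparisons with EV use the same 3 control samples, and their values are therefore given side by side.

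TRH stood above its controls under SH2 and below them under SH3. Over the EV sample of the same number, SH2 was at 1.16-fold, 1.52-fold and 1.36-fold for numbers 1, 13 and 25. SH3 was at 0.748-fold, 0.647-fold and 0.793-fold. Every SH2 sample was thus above and every SH3 sample below its control, an arrangement met by 0.866% of genes tested. Without the block, the ranges of the groups overlapped widely, and the log2 difference of SH3 against SH2 was -0.81 (SE 0.74, edgeR adjusted p = 0.998). With the block it was -0.88 (SE 0.11, edgeR adjusted p = 0.0269). The same fit gave 0.42 (SE 0.10, adjusted p = 0.0998) for SH2 and -0.46 (SE 0.11, adjusted p = 0.0842) for SH3 against EV, neither under the threshold. Without the block these were 0.35 (SE 0.73, adjusted p = 0.996) and -0.46 (SE 0.73, adjusted p = 0.982) in edgeR. The call between the shRNAs was lost in the blocked fit without EV number 25 (adjusted p = 0.0924), SH2 number 1 (0.0562), SH2 number 13 (0.116), SH2 number 25 (0.272) or SH3 number 25 (0.220). The log2 difference stayed between -1.01 and -0.74 in those fits and in the other 4 that left out a sample. ASXL2 itself differed between SH3 and SH2 by -0.10 (SE 0.10, edgeR adjusted p = 0.706 with the block).

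**Figure D3:**
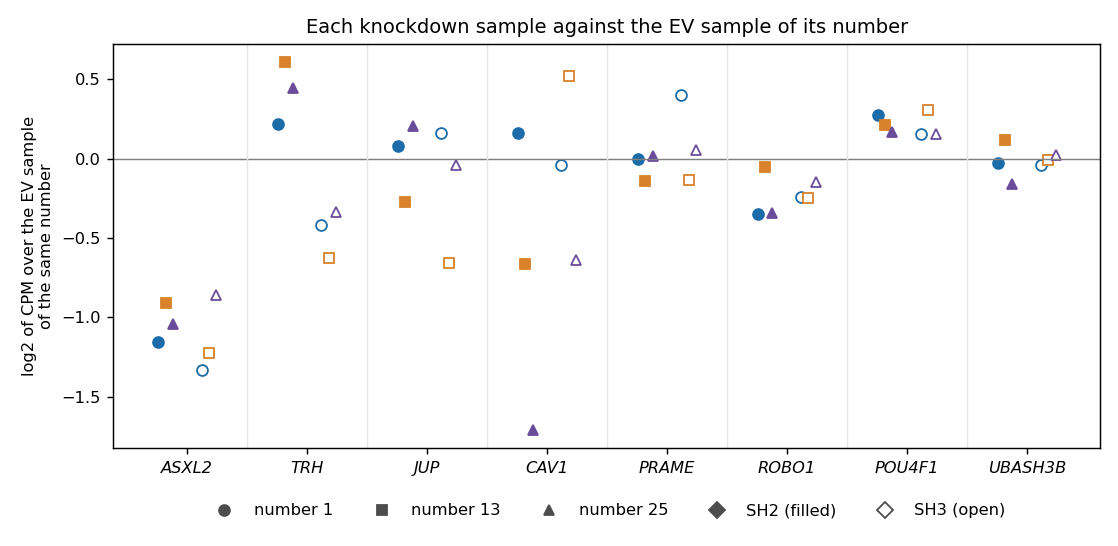
Log2 ratio of CPM in each SH2 (filled) and SH3 (open) sample over the EV sample of the same number (vertical axis), for ASXL2 and the 7 genes, with the marker shape giving the number. ASXL2 and ROBO1 are below 0 in all 6 pairs, POU4F1 is above 0 in all 6, and TRH is above 0 in SH2 (1.16-fold to 1.52-fold) and below 0 in SH3 (0.647-fold to 0.793-fold).

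ROBO1 encodes a receptor for SLIT proteins that guides axons and migrating cells. It was at 108, 96.6 and 111 CPM in the EV samples numbered 1, 13 and 25. The SH2 samples were at 84.6, 93.3 and 87.5 CPM and the SH3 samples at 90.9, 81.4 and 100.0 CPM. All 3 SH2 samples lay below all EV samples, as for 7.8% of genes, while SH3 overlapped EV. In the 6 same-numbered pairs the knockdown sample was always the lower, as for 11.6% of genes. The log2 difference was -0.25 in SH2 (SE 0.10, edgeR adjusted p = 0.892) and -0.23 for both shRNAs (SE 0.09, adjusted p = 0.720), and the block did not bring either under the threshold (0.165 and 0.115). It did so without the SH3 sample numbered 1, at adjusted p of 0.0429 for SH2 (log2 difference -0.25) and 0.0349 for both shRNAs (-0.24). ROBO1 (NM_133631) spans chr3:78646389-79817148 on the minus strand, and its 3 rows held at least 93.9% of the counts of the row used.

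POU4F1, also called BRN3A, is a POU-domain transcription factor of sensory neurons. It was at 3.52, 3.30 and 3.67 CPM in the EV samples, on 97 to 132 counts in all samples. It was at 4.25, 3.82 and 4.12 CPM in SH2 and at 3.92, 4.08 and 4.08 CPM in SH3. All 6 knockdown samples were above all 3 EV samples, which 2.16% of genes tested met. The log2 difference of both shRNAs was 0.21 (SE 0.13, edgeR adjusted p = 0.858), and 0.21 with the block (SE 0.12, adjusted p = 0.334), so that the test did not call it. The gene (NM_006237, chr13:79172497-79177687, minus strand) shares 1258 exonic bases with a long noncoding RNA on the other strand, ENSG00000271776. The libraries did not keep strand, so reads of the 2 genes cannot be told apart there.

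UBASH3B, or STS-1, is a phosphatase that dampens signalling of tyrosine kinases such as SYK. It hardly varied, at 80.1, 80.3 and 79.9 CPM in EV, 78.5, 87.2 and 71.4 CPM in SH2, and 77.8, 79.9 and 81.3 CPM in SH3. The groups overlapped throughout. Its SD of log2 CPM over the 9 samples was 0.075, and 3.33% of genes had a smaller one. The log2 difference of both shRNAs was -0.01 (SE 0.08, edgeR adjusted p = 0.992). UBASH3B (NM_032873) lies at chr11:122526430-122685181 on the plus strand.

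The 3 other members whose levels followed the numbers did not pass for the knockdown. Without the block, both shRNAs against EV gave log2 differences of -0.07 for JUP (SE 0.28), -0.18 for CAV1 (SE 0.52) and 0.05 for PRAME (SE 0.17). Their edgeR adjusted p were 0.989, 0.986 and 0.986. With the number as a block the differences were -0.09 (SE 0.11), -0.22 (SE 0.31) and 0.03 (SE 0.08), with edgeR adjusted p of 0.676, 0.721 and 0.855. Ratios to the same-numbered EV sample fell on both sides of 1 within each shRNA for all 3 genes. CAV1 ranged from 0.306-fold to 1.12-fold in SH2 and from 0.642-fold to 1.43-fold in SH3.

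The sum of squares of log2 CPM over the 9 samples was split into group, number and remainder, as a description. For POU4F1, 77.1% followed the group and 10.5% the number. For ROBO1 the shares were 58.5% and 14.8%. TRH, JUP, PRAME and CAV1 showed the opposite balance, with 85.6%, 81.4%, 74.1% and 67.0% following the number. For UBASH3B 68.9% followed neither. The medians over all genes tested were 17.9% for group and 56.8% for number, and ASXL2 stood at 89.9% for group. These are shares of unequal spreads: the SD of log2 CPM was 0.118 for POU4F1, on 97 to 132 counts, and 0.575 for ASXL2. Of all genes tested, 15.7% had a smaller SD than POU4F1.

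**Figure D4:**
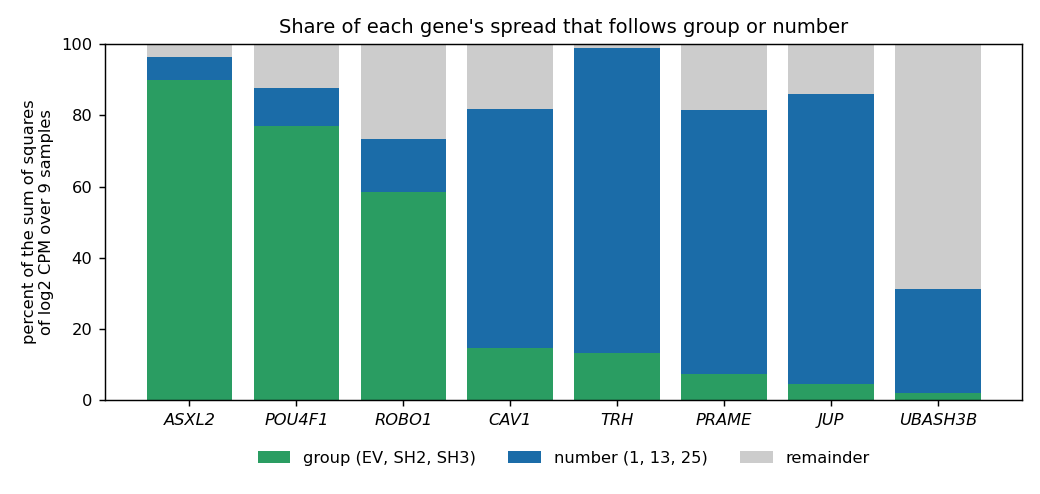
Percent of the sum of squares of log2 CPM over 9 samples (vertical axis) that followed group (green), sample number (blue) or neither (grey), for ASXL2 and the 7 genes. Group takes 89.9% of ASXL2, 77.1% of POU4F1 and 58.5% of ROBO1, and number takes 67.0% or more of CAV1, TRH, PRAME and JUP. The spread that is shared out differs, with an SD of log2 CPM of 0.575 for ASXL2 and 0.118 for POU4F1.

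Over the 9 samples, which share 3 numbers and 3 groups, TRH and JUP had a Pearson r of 0.920 of log2 CPM and PRAME and JUP of 0.746. POU4F1 and ROBO1 had an r of -0.642. Of all genes tested, those most like TRH in log2 CPM were TMTC4 (r = 0.967) and KIFAP3 (0.952). Those most like JUP were PDGFC (0.990), a platelet-derived growth factor, and HHEX (0.985), a homeobox factor of blood progenitors. PRAME was closest to TBC1D17 (0.992) and RAB20 (0.991), CAV1 to PROCA1 (0.967) and AMPH (0.926), and ROBO1 to ANKRD36 (0.989) and ITSN1 (0.968). POU4F1 was closest to TFB1M (0.978) and HSBP1 (0.965), and UBASH3B to BRIP1 (0.922) and ZNF813 (0.914). These are the highest of 14199 values each and are given without a test.

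Partners of the 7 gene products were detected unevenly. For TRH, the receptor TRHR and the degrading enzyme TRHDE had at most 3 counts in any sample, and the processing enzymes PCSK2 and CPE had none. Of the 7 other genes of TRH synthesis and action 3 passed the filter. PAM, which amidates the peptide, was higher in number 1 (1.02, SE 0.16, edgeR adjusted p = 0.000974), and QPCT, a glutaminyl cyclase, was lower (-1.03, SE 0.19, adjusted p = 0.0022). The third, PCSK1, was at 0.429 CPM and was not called. For CAV1, 5 of 8 other caveola genes passed. CAV2 was at 0.985 CPM, CAV3 and PRKCDBP had no count, and the coat gene PTRF stood at 83.9 CPM on average. PTRF ran from 105 to 127 CPM in EV, 70.2 to 80.8 CPM in SH2 and 42.2 to 102 CPM in SH3. In edgeR no group comparison called it, with or without the block. PACSIN2, a membrane-bending protein, was called, lower in number 1 (-0.17, SE 0.06, edgeR adjusted p = 0.0271).

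ROBO1 was the only ROBO gene with more than 2 counts in any sample, since ROBO2 and ROBO4 had none, and the ligands SLIT1, SLIT2 and SLIT3 had at most 8. Of its 9 listed relatives and partners 2 passed, and SRGAP2, a GTPase activator that binds ROBO1, was higher in number 1 (0.19, SE 0.07, edgeR adjusted p = 0.0418). POU4F2 had no count and POU4F3 at most 3. All 6 genes listed with PRAME passed the filter. CUL2 (-0.24, SE 0.06), TCEB1 (-0.33, SE 0.07), both of the ubiquitin ligase, LRRC14 (-0.36, SE 0.08), a PRAME relative, and RARA (-0.18, SE 0.06), a retinoic acid receptor, were lower in number 1. Their edgeR adjusted p were 0.0104, 0.00328, 0.00489 and 0.0263. Of all genes, 22.2% were lower. RBX1 (-0.05, SE 0.06) and TCEB2 (-0.10, SE 0.06), also of the ligase, were not called (edgeR adjusted p = 0.529 and 0.229). RARA was also lower in number 25 than in 13 (-0.37, SE 0.06, edgeR adjusted p = 0.0119), where PRAME was not called.

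Among 15 genes listed with JUP 10 passed, and 5 of them were called in number 1, near the 46.3% of all genes. Beta-catenin, CTNNB1, was at 189 CPM and differed by -0.07 in number 1 (SE 0.06, edgeR adjusted p = 0.341). DSC2 (0.40, SE 0.10) and PKP2 (0.30, SE 0.09), both desmosomal, were higher in number 1. LEF1 (-1.35, SE 0.19), a WNT-pathway transcription factor, CTNND1 (-0.70, SE 0.14) and PKP4 (-0.26, SE 0.07), both catenins of the p120 family, were lower. The desmosomal genes DSP, DSG2 and PKP3 and the cadherins CDH1 and CDH2 had at most 4 counts in any sample. For UBASH3B, the relative UBASH3A was at 0.819 CPM and lower in number 25 than 13 (-1.39, SE 0.28, edgeR adjusted p = 0.0202). CBLB, a ubiquitin ligase, was higher in number 1 (0.74, SE 0.12, adjusted p = 0.00109), while SYK and CBL, each at 180 CPM, were not called.

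Of 19 other genes linked to the fusion, 16 passed the filter. In number 1, 7 were higher and 2 lower, beside 24.1% and 22.2% of all genes. HPGDS (1.53, SE 0.16), a prostaglandin D synthase, CSF1R (1.00, SE 0.17), a cytokine receptor, and NFE2 (0.65, SE 0.08), an erythroid and platelet transcription factor, rose most. OGG1 (0.51, SE 0.16), KIT (0.36, SE 0.08), ID1 (0.35, SE 0.11) and LAT2 (0.30, SE 0.09) were also higher. PAX5 (-0.50, SE 0.15), the B cell factor, and RUNX3 (-0.17, SE 0.06) were lower. In both shRNAs against EV, no gene of this list was called without the block, and 2 of 16 were with it, beside 1.1% of all genes: PAX5 fell by 0.79 on the log2 scale (SE 0.14, edgeR adjusted p = 0.0412) and HPGDS by 0.90 (SE 0.16, adjusted p = 0.0412). The list was chosen with earlier results of these data known, so these shares are not a test of it. PAX5 fell by 1.11 in SH3 against EV (SE 0.17, edgeR adjusted p = 0.0308, with the block). These calls were lost with a length correction, and in the blocked fits with a sample left out they held without SH3 number 1 and, for PAX5 in both shRNAs, without SH3 number 25. RUNX1T1 and RUNX1 differed by 0.08 (SE 0.07) and 0.06 (SE 0.07) in number 1, with edgeR adjusted p of 0.344 and 0.547. NCAM1, which encodes CD56, had at most 4 counts.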

How the data were processed

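RNA was sequenced from 9 SKNO-1 samples, called biological triplicates by the study. The authors deposited whole-number counts per RefSeq transcript on hg19, not normalized. STAR, featureCounts and DESeq2 are named in the submitters' processing notes, without versions. Per the study, libraries were poly(A)-selected and unstranded. The transcript with the highest total represented each symbol, because isoforms repeat shared reads. CPM used library totals scaled by trimmed means (TMM). RPKM divided CPM by the canonical transcript length (12338 of 14199 genes).

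Counts were tested with edgeR 4.0.16 in R 4.3.3 (glmQLFit, glmQLFTest, filterByExpr with a minimum count of 10 and total of 15). P values were Benjamini-Hochberg adjusted over 14199 genes, with a threshold of 0.05. Group contrasts used 1 term per group (6 residual degrees of freedom), and number contrasts used group and number (4). The numbers paired samples: deviations from group means correlated in all 9 same-numbered pairs (lowest r 0.398, mean 0.598). The other pairs averaged -0.291, which is no separate evidence, because deviations within a group cancel out. The fit with number as block was an alternative, as were DESeq2 1.42.0, other scaling, no filter, summed rows, a length correction and leaving out samples. The block fits that left out a sample were added after seeing the data. Fits were tested on simulated data. Named genes were the 7, the 2 most correlated with each, ASXL2, and genes of lists of relatives and partners that were called, are paralogues or are among the most abundant. The members and lists were chosen with earlier results of these data known. Promoters came from RefSeq tables (GRCh38.p14), with all 7 members matched. Floors cover counting error only.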

Additional observations from a re-analysis of the deposited data

Results flagged for a closer look

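TRH was called between the 2 shRNAs with the number as a block, where the log2 difference of SH3 against SH2 was -0.88 (SE 0.11, edgeR adjusted p = 0.0269). Without the block it was -0.81 (SE 0.74, edgeR adjusted p = 0.998) and was not called. In the blocked fits that left out a sample, the call held in 4 of 9. All 3 SH2 samples were above and all 3 SH3 samples below the EV sample of their number. The groups of 3 samples were too small for the check for outlying samples.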

How the results depend on the processing

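Of 470 alternative values for single members, 422 kept their direction and their side of the threshold, 16 gained and 2 lost the call, and 30 changed sign, none of them a called value; the causes were not tested. In the order SH2, SH3 and both shRNAs against EV, then SH3 against SH2, the 0 genes called by edgeR became 40, 59, 156 and 15 with the replicate block, 6, 21, 13 and 7 with the block and a length correction, 25, 26, 56 and 11 by DESeq2, and 374, 474, 622 and 152 by DESeq2 with the block. Members called became 1 (TRH) in SH3 against SH2 under each blocked fit, and 1 (TRH) in SH2 and 1 in SH3 against EV by DESeq2 with the block (adjusted p = 0.0212 and 0.0107). Leaving out a sample gave 0 to 1604, 0 to 368, 0 to 1755 and 0 to 257 genes, with and without the block, and 0 to 2, 0 to 1, 0 to 1 and 0 to 1 members. The highest values came from blocked fits. TRH was called in SH2 against EV without SH3 number 1 (0.41, adjusted p = 0.0150) or number 13 (0.41, 0.0451), and in SH3 against EV without SH3 number 1 (-0.57, 0.0201), in blocked edgeR fits. For 25 against 13, the 833 genes became 304 and the 1 member 0 without the group term, and 50 (without EV number 25) to 2750 (without SH3 number 1) genes and 1 to 2 members with a sample left out. For number 1, 4813 to 6282 genes and 3 to 4 members were called.

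Signs changed with a sample left out for TRH in SH2 (-0.30 to 1.21) and SH3 against EV (-1.39 to 0.40) without the block, and in neither with it (0.28 to 0.54 and -0.57 to -0.33). They also changed for CAV1 (-0.66 to 0.12), JUP (-0.29 to 0.11), PRAME (-0.085 to 0.14) and UBASH3B (-0.051 to 0.020) in both shRNAs. For number 1 the ranges were -0.022 to 0.056 for POU4F1, -0.045 to 0.035 for ROBO1 and -0.065 to 0.0054 for UBASH3B, and for PRAME between 25 and 13 -0.012 to 0.17. In both shRNAs, block and length correction turned PRAME to -0.0095 and UBASH3B to 0.080, and PRAME was at -0.050 without the 3 samples numbered 1. The block changed no other member's call. Of 551 alternative values for the other genes named, 475 kept direction and side, 10 gained and 65 lost the call, and 1 changed sign (ASXL2 in SH3 against SH2, which ran from -0.29 to 0.030 with a sample left out). With some sample left out, number 1 calls were lost for PACSIN2, SRGAP2, RARA, PKP2, DSC2, RUNX3, OGG1, LAT2, ID1 and PAX5, and those between 25 and 13 for RARA and UBASH3A. With 5 to 37 counts, CAV1 is the member that depth limits most.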
